A study of Mus musculus with 6 samples.

Results

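The genes described here encode 10 receptor chains through which T cells and natural killer T cells receive the cytokines IL-12, IL-18, IL-33, IL-25, IL-27, IL-6 and IL-10. The rule that picks them is a list of symbols, and all 10 were found among the 47643 genes of the deposited count table. The study sequenced polyadenylated RNA of NKT1 cells, an invariant natural killer T (iNKT) cell subset, taken by sorting from thymi of BALB/c animals labelled wild type (WT). The groups were 3 libraries of CD4-positive NKT1 cells and 3 libraries of CD4-negative NKT1 cells, and they asked how the CD4 coreceptor subsets of these cells differ. No treatment, transgene or deletion is labelled in either group, and the sources used here do not give the age, the number of animals behind a library or any pooling. Whether each library came from its own animals is not labelled, so a p-value here reflects only how libraries vary, which may be technical.

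IL-12 binds a pair of chains, IL-12Rβ1 and IL-12Rβ2, and signals through the kinases TYK2 and JAK2 to STAT4, while IL-27 and IL-6 both use the shared signalling chain gp130, encoded by Il6st, and act through STAT proteins, STAT3 among them. IL-18, IL-33 and IL-25 use other receptor families: the IL-18 and IL-33 receptors carry a cytoplasmic TIR domain that recruits MyD88, and the IL-25 receptor chain IL-17RB recruits the adaptor Act1. In mouse iNKT cells IL-12 with IL-18 is a known stimulus of interferon gamma production by NKT1 cells, and IL-17RB is known from the iNKT cells that respond to IL-25.

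The sequences before the start of 6 of the genes are shown for their part in the values that follow: Il17rb and Il6ra have the largest differences in level between the groups, Il12rb2 has a level that varied most between libraries among the abundant chains after Il10ra, and Il1rl1, Il18r1 and Il18rap lie side by side with very unequal levels. Of the 10 genes 7 had an entry in the promoter table (RefSeq, GRCm38.p6), and Il12rb1, Il27ra and Il10ra had none. Each sequence runs 5′ to 3′ on the strand of its gene and ends 1 base before the annotated start. It covers up to 250 bases, and it is shorter for Il17rb (126 bases) and Il18r1 (136 bases), where the bases further upstream belong to an exon of a neighbouring protein-coding gene. Capitals mark matches on either strand to 4 motifs, and no matches overlap. The STAT motif searched was TTCNNNGAA. For GATA factors it was AGATAA. For T-box factors it was AGGTGT, and for RUNX factors TGTGGT.
Il17rb, chr14:30008897-30009022, minus strand: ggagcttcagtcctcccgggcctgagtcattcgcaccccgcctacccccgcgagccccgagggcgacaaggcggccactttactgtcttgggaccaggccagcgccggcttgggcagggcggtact
Il6ra, chr3:89913197-89913446, minus strand: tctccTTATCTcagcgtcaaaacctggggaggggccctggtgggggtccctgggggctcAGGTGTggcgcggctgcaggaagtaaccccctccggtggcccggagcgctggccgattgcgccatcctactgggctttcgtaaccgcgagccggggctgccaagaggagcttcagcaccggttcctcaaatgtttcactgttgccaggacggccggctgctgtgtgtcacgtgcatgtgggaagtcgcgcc
Il12rb2, chr6:67376189-67376438, minus strand: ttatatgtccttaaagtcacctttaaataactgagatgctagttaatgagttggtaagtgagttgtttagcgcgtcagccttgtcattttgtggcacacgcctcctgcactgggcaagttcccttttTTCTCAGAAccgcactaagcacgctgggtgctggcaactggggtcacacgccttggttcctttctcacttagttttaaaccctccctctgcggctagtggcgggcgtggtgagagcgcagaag
Il1rl1, chr1:40429320-40429569, plus strand: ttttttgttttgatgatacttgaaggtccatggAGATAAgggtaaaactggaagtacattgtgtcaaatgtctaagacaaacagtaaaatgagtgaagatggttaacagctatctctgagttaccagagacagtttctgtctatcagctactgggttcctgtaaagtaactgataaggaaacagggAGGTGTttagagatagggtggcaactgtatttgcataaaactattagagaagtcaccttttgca
Il18r1, chr1:40465416-40465551, plus strand: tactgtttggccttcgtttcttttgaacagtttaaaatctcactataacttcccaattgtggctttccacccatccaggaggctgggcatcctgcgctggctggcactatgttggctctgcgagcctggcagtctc
Il18rap, chr1:40515112-40515361, plus strand: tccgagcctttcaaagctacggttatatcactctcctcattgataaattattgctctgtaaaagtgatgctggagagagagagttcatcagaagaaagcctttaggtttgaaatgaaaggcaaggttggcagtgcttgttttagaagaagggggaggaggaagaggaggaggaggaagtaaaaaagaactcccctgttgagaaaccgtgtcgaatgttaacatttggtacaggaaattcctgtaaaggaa

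Il12rb2 held a STAT match, TTCTCAGAA, and 7.02% of all 32851 promoter windows of 250 bases held such a match. A GATA match lay in the windows of Il6ra and Il1rl1, as in 9.99% of all windows, and a T-box match lay in the same pair of windows, as in 11.8% of all. No RUNX match was present in the 6 sequences shown, against 14% of all windows of 250 bases, and the windows of Il17rb, Il18r1 and Il18rap held none of the 4 motifs. In windows of 126 bases, the length shown for Il17rb, the shares over all genes were 3.35% for STAT, 4.61% for GATA, 5.68% for T-box and 7.05% for RUNX. In windows of 136 bases, the length shown for Il18r1, they were 3.64%, 5.09%, 6.15% and 7.62% in the same order of motifs. A match is a string of letters and not a measured binding site. Only these exact strings were searched, so a window without a match may still hold a variant of a motif.

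The libraries held 40480468 to 53145898 estimated counts. Levels are given as CPM, counts scaled to a common library size by TMM, which corrects for differences in library composition. The sort marker Cd4 stood at 401 to 508 CPM in CD4-positive libraries, against 10.9 to 41.2 CPM in CD4-negative libraries. The T cell genes Cd3e, Cd3g, Trac, Trbc2 and Thy1 summed to 3662 to 4108 CPM in CD4-positive libraries against 3879 to 4950 CPM in CD4-negative libraries. The NKT1 markers (Tbx21, Klrb1c, Il2rb, Xcl1, Ifng and Nkg7) summed to 3132 to 3989 CPM and 3414 to 3646 CPM in CD4-positive and CD4-negative libraries. CD4-negative replicate 3 stood apart from the others, with counts for 13787 genes against 15293 to 16267, and it shared with CD4-positive replicate 1 a low portion of mitochondrial counts (1.33% and 1.35%, against 3.51% to 5.19%). Markers of B cells and of mast cells and basophils were near 0, with sums of at most 0.185 CPM and 0.344 CPM in any library, and Pax5, Mcpt8, Ms4a2 and Fcer1a had no count in any. Myeloid markers summed to 89.7 to 138 CPM in CD4-positive libraries against 95.9 to 173 CPM in CD4-negative libraries, nearly all of it Cst3 (118 ± 25.5 CPM and 121 ± 44.8 CPM, SD, n = 3 each), while Cd14 had 1 count in 1 library and 0 in the others. Epithelial and stromal markers summed to 2.49 to 2.66 CPM and 2.45 to 3.02 CPM in CD4-positive and CD4-negative libraries. NK and ILC1 markers summed to 77.1 to 95.4 CPM in CD4-positive libraries, against 190 to 201 CPM in CD4-negative libraries. Regulatory T cell markers summed to 63.9 to 80.7 CPM in CD4-positive libraries, against 30.5 to 40.5 CPM in CD4-negative libraries, with Foxp3 at no more than 1.2 CPM in any library. Immature thymocyte markers summed to 25.7 to 138 CPM in CD4-positive libraries against 42.6 to 208 CPM in CD4-negative libraries. In bulk RNA a smaller number of cells of a type and less RNA per cell cannot be told apart.

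NKT1 cells of both subsets carried abundant transcripts of Il18r1, Il18rap and Il27ra, and few of Il6ra, Il17rb and Il1rl1. Per kb of exon Il12rb2, Il10ra, Il12rb1 and, below these, Il6st lay in between. None of the 10 receptor genes differed between CD4-positive and CD4-negative cells at an adjusted p under 0.05 by edgeR's quasi-likelihood test with Benjamini-Hochberg adjustment over the 12760 tested genes, of which 27, or 0.212%, passed (0.0705% higher and 0.141% lower in CD4-positive cells). DESeq2 and limma-voom also called none of the 10. The number of genes passing depended on single libraries: by edgeR it was 44 without CD4-negative replicate 3 and 0 without any other library, and no receptor gene passed in any of these fits. At an unadjusted p under 0.05 there were 2 of the 10, Il17rb and Il6ra, both with a higher level in CD4-positive cells, where 4.44% of all tested genes met that rule. The median log2 difference (CD4-positive minus CD4-negative) was 0.22 over the receptor genes and -0.01 over all tested genes, and 7 of the 10 lay above 0, against 48.9% of all tested genes. Groups did not overlap for 1 of the 10, Il17rb, and for 9.41% of all tested genes (4.84% with the CD4-positive and 4.57% with the CD4-negative libraries higher). All 10 passed the filter on low counts. Il17rb did so only through its CD4-positive libraries and CD4-negative replicate 1, so its presence among the tested genes already leans on the group in which it is high.

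**Figure D1:**
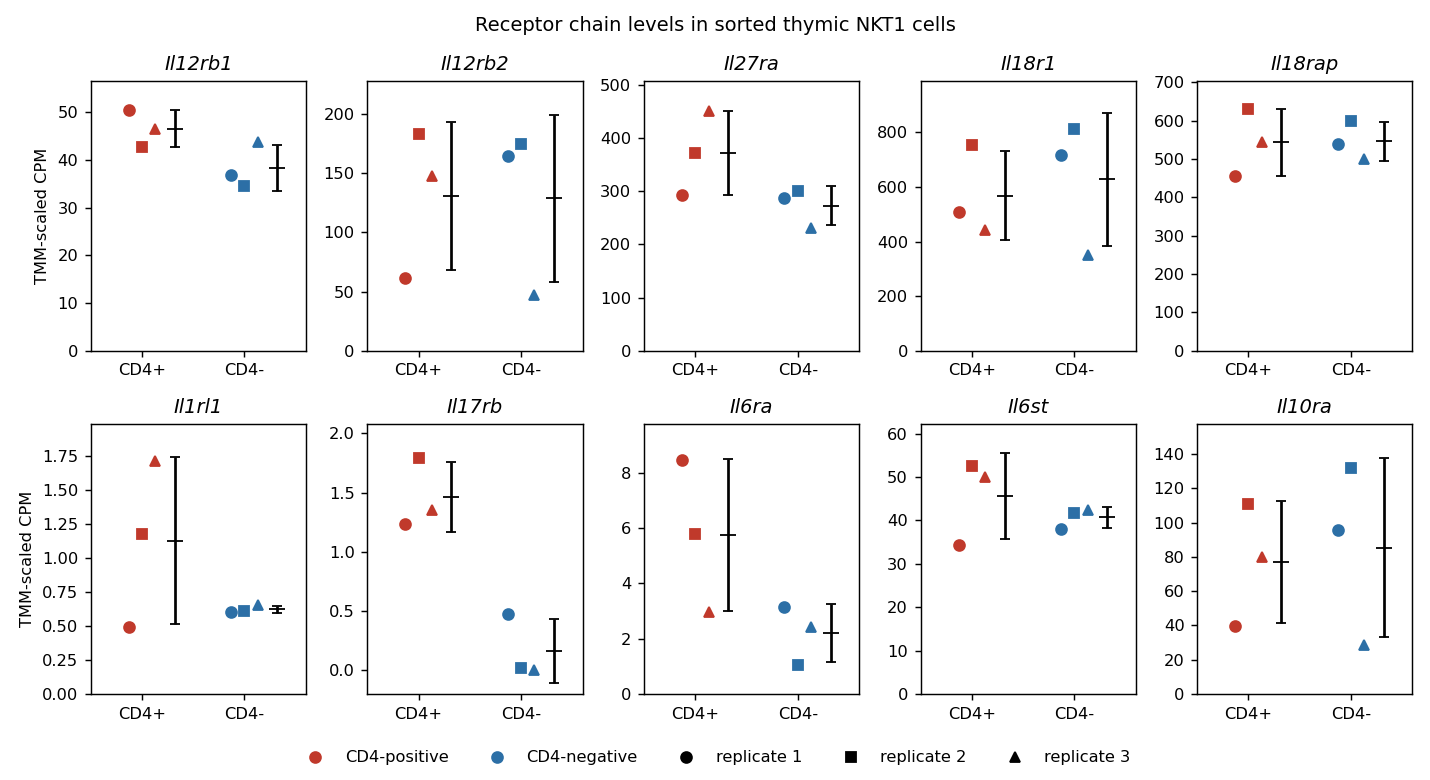
Level of each receptor gene in every library (TMM-scaled CPM on the vertical axis, starting at 0 except for Il17rb, where the error bar passes below 0), with CD4-positive libraries on the left and CD4-negative libraries on the right of each panel; the bars at the side show mean ± SD (n = 3). Only the groups of Il17rb do not overlap, and the lowest CD4-negative value of Il12rb2, 47.4 CPM, and of Il10ra, 28.5 CPM, are both from replicate 3.

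Il12rb1 encodes IL-12Rβ1, the chain that binds the p40 subunit common to IL-12 and IL-23 (chromosome 8, 70808449 to 70821424, plus strand, GRCm38). It had 50.5, 42.7 and 46.4 CPM in CD4-positive replicates 1, 2 and 3, against 36.8, 34.5 and 43.8 CPM in CD4-negative replicates 1, 2 and 3. The groups overlapped by a single library, since CD4-negative replicate 3 lay above CD4-positive replicate 2. The difference was 0.28 on the log2 scale (SE 0.16, 95% interval -0.10 to 0.66, edgeR adjusted p = 1.0), and with each library left out in turn it lay between 0.21 and 0.39.

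Il12rb2 encodes IL-12Rβ2, the inducible chain that docks STAT4 and sets which T cells can respond to IL-12 (chromosome 6, 67291318 to 67376188, minus strand). It had 61.2, 183 and 147 CPM in CD4-positive replicates 1, 2 and 3, against 165, 174 and 47.4 CPM in CD4-negative replicates 1, 2 and 3. In each group 1 library was far below the other 2, and these were the libraries of low mitochondrial share, CD4-positive replicate 1 and CD4-negative replicate 3. The group means were 130 ± 62.5 CPM in CD4-positive cells against 129 ± 70.6 CPM in CD4-negative cells (SD, n = 3 each), and the log2 difference was 0.02 (SE 0.55, 95% interval -1.26 to 1.29, edgeR adjusted p = 1.0). The interval spans more than a doubling in either direction, so a difference of that size was not detectable here, and the sign turned in 3 of the 6 fits that left out a library (lowest value -0.37, without CD4-negative replicate 3).

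Of the 3794 exonic bases of Il12rb2, 1519 are also exonic in Serbp1, a gene for an RNA-binding protein on the opposite strand, and the estimated count of Il12rb2 was fractional in 6 of 6 libraries. Serbp1 had 1267, 967 and 934 CPM in CD4-positive replicates 1, 2 and 3, against 1005, 955 and 1270 CPM in CD4-negative replicates 1, 2 and 3, so it was highest in the libraries where Il12rb2 was lowest. The sources used here do not say whether the counting used the strand, and the part of Serbp1 reads in the level of Il12rb2 was not tested. The other 9 receptor genes had whole counts in every library.

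Il27ra encodes the ligand-specific chain of the IL-27 receptor, which pairs with gp130 (chromosome 8, 84030294 to 84042589, minus strand). It had 293, 372 and 450 CPM in CD4-positive replicates 1, 2 and 3, against 287, 300 and 231 CPM in CD4-negative replicates 1, 2 and 3. Only CD4-positive replicate 1 fell inside the CD4-negative range, below CD4-negative replicate 2. The log2 difference was 0.45 (SE 0.21, 95% interval -0.04 to 0.93, edgeR adjusted p = 1.0), and it stayed above 0 when any library was left out, between 0.29 and 0.59. Il27ra shares only 2 exonic bases with its opposite-strand neighbour Palm3.

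Il6st encodes gp130, the signal-transducing chain of the IL-6 and IL-27 receptors (chromosome 13, 112464070 to 112510086, plus strand). It had 34.3, 52.6 and 49.9 CPM in CD4-positive replicates 1, 2 and 3, against 38.0, 41.7 and 42.5 CPM in CD4-negative replicates 1, 2 and 3. The CD4-negative values lay within the CD4-positive range, and the log2 difference was 0.16 (SE 0.20, 95% interval -0.30 to 0.62, edgeR adjusted p = 1.0). It was 0.05 without CD4-positive replicate 2, 0.10 without CD4-positive replicate 3 and 0.33 without CD4-positive replicate 1.

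Il6ra encodes the IL-6-binding chain, which has no signalling part of its own and is known from naive T cells (chromosome 3, 89864059 to 89913196, minus strand). It had 8.47, 5.78 and 2.97 CPM in CD4-positive replicates 1, 2 and 3, against 3.14, 1.05 and 2.43 CPM in CD4-negative replicates 1, 2 and 3. The lowest CD4-positive library, replicate 3, lay just below the highest CD4-negative library, replicate 1, so the groups overlapped. The mean was 5.74 ± 2.75 CPM in CD4-positive cells against 2.21 ± 1.06 CPM in CD4-negative cells (SD, n = 3 each), a log2 difference of 1.38 (SE 0.51, 95% interval 0.19 to 2.57). By edgeR's quasi-likelihood test the unadjusted p was 0.0282 and the adjusted p = 0.885. Leaving out a library in turn gave 0.99 to 1.73. The antisense gene Gm42809, which shares 242 exonic bases with Il6ra, had at most 0.0617 CPM in any library.

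Il18r1 encodes the IL-18-binding chain and Il18rap the accessory chain, and together they form the signalling IL-18 receptor, a mark of type 1 lymphocytes. Il18r1 (chromosome 1, 40465552 to 40500854, plus strand) had 509, 754 and 442 CPM in CD4-positive replicates 1, 2 and 3, against 719, 814 and 351 CPM in CD4-negative replicates 1, 2 and 3. The CD4-negative range enclosed the CD4-positive range, with both replicate 3 libraries the lowest of their group, and the log2 difference was -0.14 (SE 0.35, 95% interval -0.95 to 0.66, edgeR adjusted p = 1.0). Without CD4-positive replicate 3 or CD4-negative replicate 2 the sign of this small difference turned (0.01 and 0.09).

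Il18rap (chromosome 1, 40515362 to 40551705, plus strand) had 456, 630 and 546 CPM in CD4-positive replicates 1, 2 and 3, against 539, 600 and 499 CPM in CD4-negative replicates 1, 2 and 3. The CD4-negative values lay inside the CD4-positive range, and the log2 difference was -0.01 (SE 0.18, 95% interval -0.43 to 0.41, edgeR adjusted p = 1.0).

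Il1rl1 encodes ST2, the receptor for the alarmin IL-33, known from type 2 innate lymphoid cells, mast cells and a portion of regulatory T cells. It ends 136 bases before Il18r1 begins (chromosome 1, 40429570 to 40465415, plus strand). It had 0.494, 1.18 and 1.72 CPM in CD4-positive replicates 1, 2 and 3, against 0.602, 0.611 and 0.653 CPM in CD4-negative replicates 1, 2 and 3. CD4-positive replicate 1 was below every CD4-negative library while the other 2 were above, and the log2 difference was 0.86 (SE 0.55, 95% interval -0.42 to 2.13, edgeR adjusted p = 1.0). Leaving out CD4-positive replicate 3 gave 0.43, and leaving out CD4-positive replicate 1 gave 1.22. These levels rest on 24 to 89 counts in CD4-positive libraries against 25 to 33 counts in CD4-negative libraries. Per kb of exon Il18r1 stood 369-fold to 1470-fold above Il1rl1 in CD4-positive libraries and 771-fold to 1910-fold above it in CD4-negative libraries. Of the markers of type 2 innate lymphoid cells, which summed to 1.62 to 2.28 CPM in CD4-positive libraries against 2.58 to 5.25 CPM in CD4-negative libraries, Il5 and Rxrg had no count in any library. The 3 that were tested went both ways. Klrg1 (0.72 ± 0.06 against 1.58 ± 0.80 CPM) and Hpgds (0.64 ± 0.22 against 1.95 ± 0.82 CPM) had lower means in CD4-positive cells. Il13, also used below as an NKT2 marker, had a higher one (0.55 ± 0.58 against 0.16 ± 0.15 CPM, SD, n = 3 each).

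Il17rb encodes IL-17RB, the chain that binds IL-25 and pairs with IL-17RA (chromosome 14, 29996135 to 30008896, minus strand). It had 60, 93 and 70 counts in CD4-positive replicates 1, 2 and 3, against 22, 1 and 0 counts in CD4-negative replicates 1, 2 and 3. These counts corresponded to 1.23, 1.79 and 1.35 CPM in CD4-positive cells, against 0.473, 0.0185 and 0 CPM in CD4-negative cells, where a count of 0 allows up to 0.0783 CPM in that library by counting error alone. CD4-negative replicate 3 had counts for the fewest genes (13787). Il17rd and Col1a1 also had a count of 0 there and in no other library, while Il1rl1 had 25 counts there. The part of this in the Il17rb count was not tested. Every CD4-positive library lay above every CD4-negative library, and 22 of the 23 CD4-negative counts came from replicate 1. The fitted log2 difference was 3.12 (SE 1.2, 95% interval 0.31 to 5.94), with an unadjusted p of 0.0339 and an adjusted p = 0.955 by edgeR's quasi-likelihood test.

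Without CD4-negative replicate 1 the log2 difference of Il17rb was 6.80 (edgeR adjusted p = 0.168), and without any other library it was 2.58 to 3.23. The size also depended on the model, at 4.72 by limma-voom on all 6 libraries. NKT2 markers (Zbtb16, Gata3, Il4, Ccr4, Izumo1r, Plac8 and Il13) summed to 432 to 585 CPM in CD4-positive libraries against 240 to 276 CPM in CD4-negative libraries. The largest difference in CPM within this sum was that of Izumo1r (230 ± 50.3 against 52.6 ± 11.2 CPM, SD, n = 3 each). Gata3 was level, at 129 ± 37.6 against 131 ± 5.86 CPM, and the other 6 had log2 differences above 0. Of the 7, 2 passed the test over all 6 libraries, Ccr4 and Izumo1r, where 0.212% of all tested genes passed. Neither passed when any library other than CD4-negative replicate 3 was left out, and this list was drawn up with earlier results of these data known. NKT17 markers were low, with sums of 0.945 to 2.58 CPM in CD4-positive libraries against 1.72 to 4.61 CPM in CD4-negative libraries, and Il17f had no count in any. The highest of these sums, with 1.42 CPM of Il1r1 and 0.667 CPM of Il23r, was that of CD4-negative replicate 1, the library that held nearly all CD4-negative Il17rb counts. The part of NKT2 or NKT17 cells in the Il17rb counts was not tested. Il17rb shares 141 exonic bases with Actr8, a gene for an actin-related protein on the opposite strand, which had 32 ± 1.41 CPM in CD4-positive cells against 35.6 ± 4.23 CPM in CD4-negative cells (SD, n = 3 each).

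Il10ra encodes the IL-10-binding chain, which signals through JAK1 and STAT3 (chromosome 9, 45253837 to 45269149, minus strand). It had 39.8, 111 and 79.8 CPM in CD4-positive replicates 1, 2 and 3, against 95.7, 132 and 28.5 CPM in CD4-negative replicates 1, 2 and 3. As with Il12rb2, the low values were those of CD4-positive replicate 1 and CD4-negative replicate 3. The log2 difference was -0.15 (SE 0.56, 95% interval -1.47 to 1.17, edgeR adjusted p = 1.0), and it lay between -0.56 and 0.31 when a library was left out. Il12rb2, Il10ra and, by a smaller margin, Il18rap were lower in these 2 libraries than in the other 4, a pattern shown by 22.3% of all tested genes, and the part of RNA quality in it was not tested. Without both libraries the log2 differences were -0.03 for Il12rb2, -0.25 for Il10ra and 0.05 for Il18rap, a comparison added after seeing the data.

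**Figure D2:**
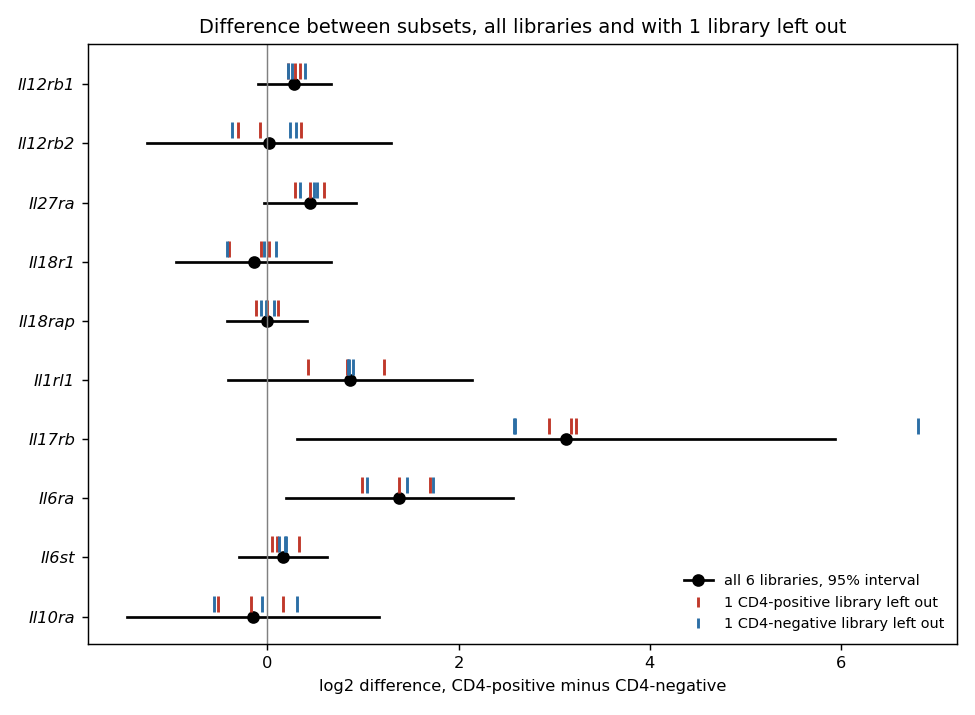
Log2 difference in level (CD4-positive minus CD4-negative, horizontal axis) of each receptor gene, as a point with its 95% interval from all 6 libraries, and as small marks for the fits that leave out 1 library. Intervals lie above 0 for Il17rb (0.31 to 5.94) and Il6ra (0.19 to 2.57) without adjustment for the number of genes tested, and the separate mark at 6.80 is Il17rb without CD4-negative replicate 1.

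Levels of different genes were compared per kb of exon, using the union of annotated exons. Il18r1 had the highest level, with a median over the 6 libraries of 127 CPM per kb (73.0 to 169), followed by Il27ra with 84.8 (66.0 to 129) and Il18rap with 80.4 (67.5 to 93.3). The ranges of these 3 genes overlapped, so their order is not firm, and all 3 lay above the next gene in every library. Il12rb2 followed with a median of 41.1 CPM per kb (12.5 to 48.2), Il10ra with 25.1 (8.14 to 37.6) and Il12rb1 with 10.5 (8.40 to 12.3), again with overlapping ranges between neighbours. Il6st stood below all of these at 3.79 CPM per kb (3.09 to 4.74), and its range overlapped neither neighbour. Il6ra (0.354, range 0.122 to 0.981), Il17rb (0.230, range 0 to 0.484) and Il1rl1 (0.0916, range 0.0716 to 0.249) were the lowest, with overlapping ranges. Annotated exons need not all be used in these cells, Il6st has 11099 exonic bases, and 1519 bases of Il12rb2 are shared with Serbp1, so these levels carry the uncertainty of the lengths.

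**Figure D3:**
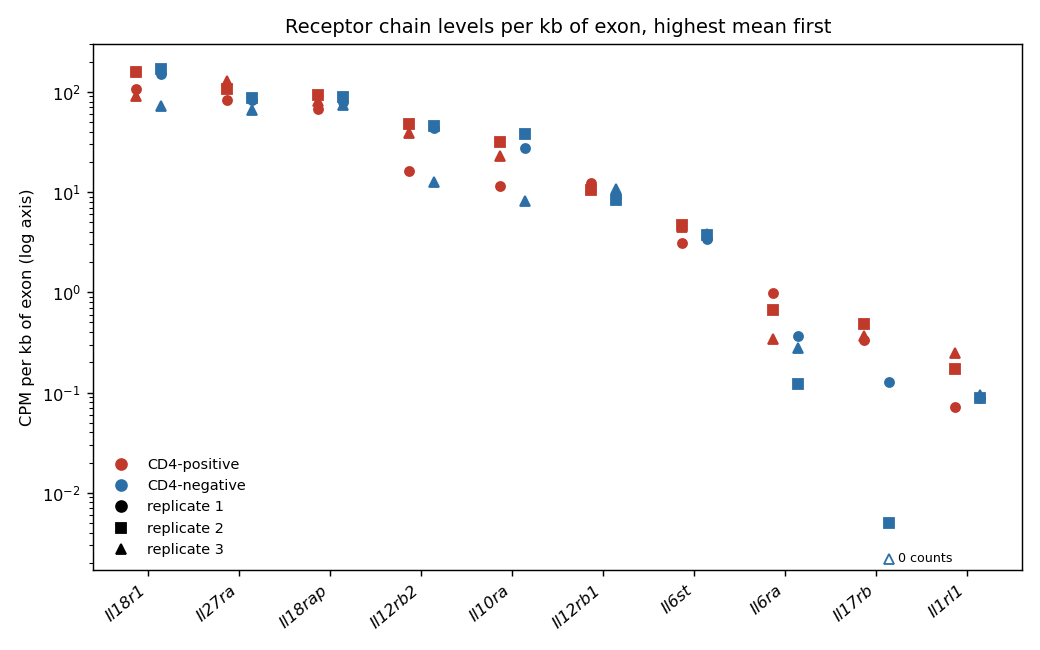
Level of each receptor gene per kb of exon in every library (CPM per kb, log axis), with genes ordered by their mean over all libraries and CD4-positive points left of CD4-negative points. The levels span from 127 CPM per kb for Il18r1 to 0.0916 CPM per kb for Il1rl1 (medians of 6 libraries), and the open triangle marks the library in which Il17rb had 0 counts.

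Because these receptors work as pairs of chains, the ratio of paired chains was taken within each library, which removes the scaling between libraries. With 3 libraries against 3 the smallest p of the exact permutation test is 0.1, and 4 ratios were tested. By estimated counts Il12rb2 stood above Il12rb1 in every library, at 1.31, 4.63 and 3.43 times its level per kb in CD4-positive replicates 1, 2 and 3, against 4.85, 5.47 and 1.17 times in CD4-negative replicates 1, 2 and 3. The lowest ratios, 1.31 and 1.17, were in the libraries where Serbp1, which shares 1519 exonic bases with Il12rb2, was highest (1267 and 1270 CPM). The part of Serbp1 reads in these ratios was not tested. The mean log2 ratio was 1.46 ± 0.95 in CD4-positive and 1.65 ± 1.24 in CD4-negative cells (2-sided exact permutation p = 0.7, Benjamini-Hochberg adjusted 0.8, n = 3 each).

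The accessory chain Il18rap stood near or below the binding chain Il18r1, at 0.640, 0.596 and 0.880 times its level in CD4-positive replicates 1, 2 and 3, against 0.535, 0.526 and 1.01 times in CD4-negative replicates 1, 2 and 3. Both groups had their highest ratio in replicate 3, and the log2 means of -0.52 ± 0.30 and -0.60 ± 0.54 in CD4-positive and CD4-negative cells differed by less than their spread (2-sided exact permutation p = 0.8, adjusted 0.8, n = 3 each). Il6ra was far below Il6st, at 0.317, 0.141 and 0.0764 times its level in CD4-positive replicates 1, 2 and 3, against 0.106, 0.0325 and 0.0734 times in CD4-negative replicates 1, 2 and 3. The difference of the mean log2 ratios was 1.25, with overlapping groups (2-sided exact permutation p = 0.2, adjusted 0.6, n = 3 each). Il27ra stood 22.5 to 28.6 times above Il6st in CD4-positive libraries against 17.2 to 24.0 times above it in CD4-negative libraries, a difference of 0.29 in mean log2 ratio (2-sided exact permutation p = 0.3, adjusted 0.6, n = 3 each).

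**Figure D4:**
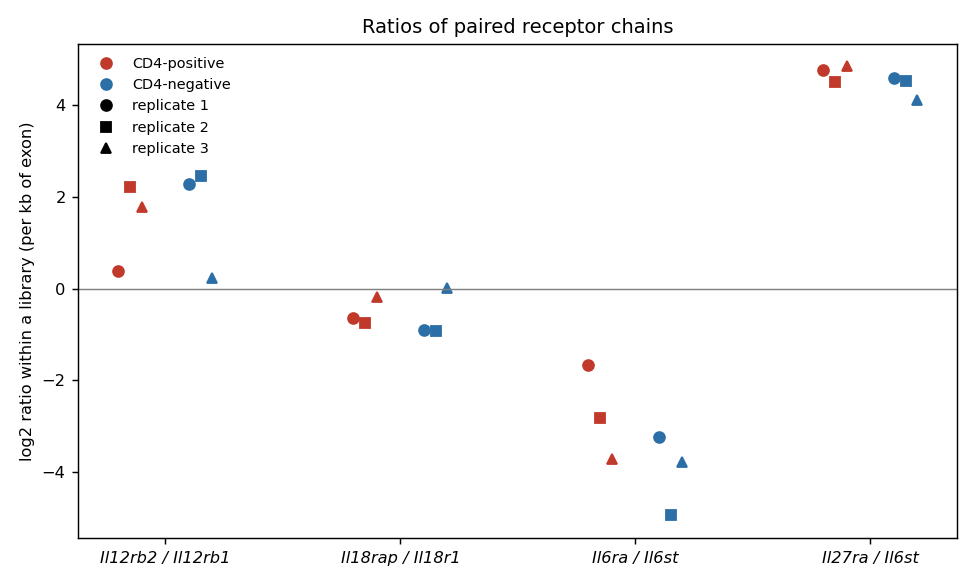
Log2 ratio of paired receptor chains within each library, per kb of exon (vertical axis), for 4 pairs, with CD4-positive libraries left of CD4-negative libraries and symbols for the replicate number. Il12rb2 to Il12rb1 is lowest in CD4-positive replicate 1 (1.31 times) and CD4-negative replicate 3 (1.17 times), and in all 4 pairs the groups overlap.

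Genes with the most similar profile over the 6 libraries were found by the root mean square difference of log2 CPM centred on each gene's mean, over 8680 protein-coding genes with a mean of at least 5 CPM. For Il12rb2 the closest gene was Evi2b (difference 0.07, where the profile of Il12rb2 itself varied by 0.78 about its mean), with 72.1, 229 and 199 CPM in CD4-positive and 209, 237 and 60.9 CPM in CD4-negative replicates 1, 2 and 3. Elmo1 was next (0.13). For Il10ra they were Axin2 (0.11) and Elmsan1 (0.12), for Il18r1 Nfrkb (0.06) and Sipa1l1 (0.06), and for Il18rap Mpp5 (0.03) and Rab14 (0.04). For Il12rb1 they were Entpd1 (0.04) and Eml2 (0.05), for Il27ra Smyd5 (0.07) and Vwa5a (0.07), and for Il6st Fam185a (0.05) and Usp9x (0.05). Il6ra, Il17rb and Il1rl1 were below the level set for this search, and these likenesses are descriptions over 6 libraries of which 2 stand apart.

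The chains that complete these receptors were present too. Of 24 partner and related receptor chains 16 were tested and none passed the test over all genes (median log2 difference -0.13), while 3 (Il31ra, Il22ra1 and Il20ra) had no count in any library. Il17ra, the partner of IL-17RB, had 114.4, 126.5 and 123.1 CPM in CD4-positive replicates 1, 2 and 3, against 155, 176 and 159 CPM in CD4-negative replicates 1, 2 and 3. Its groups did not overlap, in the direction opposite to Il17rb (log2 -0.43, SE 0.14, edgeR adjusted p = 0.727). Il1rl2, the IL-36 receptor and a neighbour of Il1rl1, had 15.2 ± 4.93 CPM in CD4-positive cells against 9.71 ± 1.26 CPM in CD4-negative cells (SD, n = 3 each, log2 0.64, edgeR adjusted p = 1.0). Ifngr1, the binding chain of the interferon gamma receptor, was the most abundant of the list at 361 ± 68.5 CPM in CD4-positive cells against 445 ± 97.2 CPM in CD4-negative cells (SD, n = 3 each). Il1rap, the accessory chain of the IL-33 receptor, stood at 15.6 ± 5.37 and 16 ± 5.85 CPM in CD4-positive and CD4-negative cells, and Il10rb, the partner of IL-10Rα, at 107 ± 10.5 and 124 ± 10.3 CPM (SD, n = 3 each). The cytokines themselves were nearly absent: of 18 ligand and binding protein genes 16 were under 1 CPM in every library, and Il12a, Il27, Il18, Il33, Il25, Il10 and Il1rn had no count in any. The exceptions were Osm, the cytokine oncostatin M, at 10.2 ± 2.74 CPM in CD4-positive cells against 9.62 ± 3.07 CPM in CD4-negative cells, and Il18bp, the IL-18-binding decoy, at 1.18 ± 0.64 and 1.25 ± 0.27 CPM (SD, n = 3 each).

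Downstream of the receptors, all 11 JAK and STAT genes had at least 10 CPM in every library and none passed the test (median log2 difference 0.06, range -0.08 to 0.40). Stat4, which relays IL-12, stood at 259 ± 18.2 CPM in CD4-positive cells against 274 ± 9.27 CPM in CD4-negative cells, and Stat3, which relays IL-6 and IL-10, at 201 ± 20.7 and 203 ± 26.6 CPM (SD, n = 3 each). Jak1, the most abundant kinase of the list, had 950 ± 128 and 963 ± 182 CPM in CD4-positive and CD4-negative cells, and Jak3 had 180 ± 72.0 and 136 ± 20.3 CPM (SD, n = 3 each).

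None of 20 genes of the MyD88, IRAK and TRAF pathway, used by IL-18 and IL-33, passed the test, and none had groups that did not overlap (median log2 difference 0.00). Tab2, an adaptor of the kinase TAK1 and the most abundant of them, had 248 ± 22.1 CPM in CD4-positive cells against 256 ± 37.7 CPM in CD4-negative cells (SD, n = 3 each). Tnfaip3, which encodes the NF-κB inhibitor A20, varied far more between libraries than between groups, with 386, 83.7 and 63.8 CPM in CD4-positive replicates 1, 2 and 3, against 630, 76.9 and 39.7 CPM in CD4-negative replicates 1, 2 and 3. It was highest in replicate 1 of each group. Map3k8 had a log2 difference of -0.43 and Ikbkg one of 0.19, each with overlapping groups. Of 7 genes of the IL-17 receptor adaptor pathway none passed (median -0.11). Traf3 and Zc3h12a, with the smallest p of the list, had log2 differences of 0.24 and -0.38.

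Of 10 inhibitors of these signals none passed the test (median log2 difference -0.09). Socs2, a cytokine-induced inhibitor, had 15.8, 19.9 and 16.2 CPM in CD4-positive replicates 1, 2 and 3, against 26.7, 27.0 and 25.7 CPM in CD4-negative replicates 1, 2 and 3. Its groups did not overlap (log2 -0.61, SE 0.16, edgeR adjusted p = 0.414). The phosphatases Ptpn6 and Ptpn11 stood at 1054 ± 215 and 126 ± 7.07 CPM in CD4-positive cells, against 1040 ± 148 and 118 ± 3.57 CPM in CD4-negative cells (SD, n = 3 each), and Pias1 had a log2 difference of -0.17.

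Among 15 genes known to respond to STAT4 or to mark type 1 responses 14 were tested. Of these 1, the chemokine gene Ccl5, fell in CD4-positive cells, with 92.6, 92.7 and 98.9 CPM in CD4-positive replicates 1, 2 and 3, against 494, 471 and 414 CPM in CD4-negative replicates 1, 2 and 3 (log2 -2.28, SE 0.15, edgeR adjusted p = 0.00522). Ccl5, like every other gene, no longer passed when any library other than CD4-negative replicate 3 was left out. These 14 genes had a median log2 difference of -0.66, and 5 of the 14 had non-overlapping groups, all lower in CD4-positive cells, where 4.57% of all tested genes did so in that direction. The list was drawn up with earlier results of these data known, so this count is a description. Eomes, a T-box factor, had 11.7 ± 2.06 CPM in CD4-positive cells against 35.6 ± 11.5 CPM in CD4-negative cells (SD, n = 3 each, edgeR adjusted p = 0.0964). Gzmb, which encodes granzyme B, had 338 ± 105 and 539 ± 159 CPM with overlapping groups, and Tbx21, which encodes T-bet, had 397 ± 51.0 and 437 ± 180 CPM in CD4-positive and CD4-negative cells (SD, n = 3 each). The receptor chains that feed STAT4 and MyD88, Il12rb1, Il12rb2, Il18r1 and Il18rap, had log2 differences of 0.28, 0.02, -0.14 and -0.01. Of 11 STAT3 targets 10 were tested and none passed (median -0.06). Maf had the smallest p among them (164 ± 27.0 CPM in CD4-positive cells against 82.9 ± 6.69 CPM in CD4-negative cells, SD, n = 3 each, edgeR adjusted p = 0.109), and Junb and Pim1 had log2 differences of -0.67 and -0.30.

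**Figure D5:**
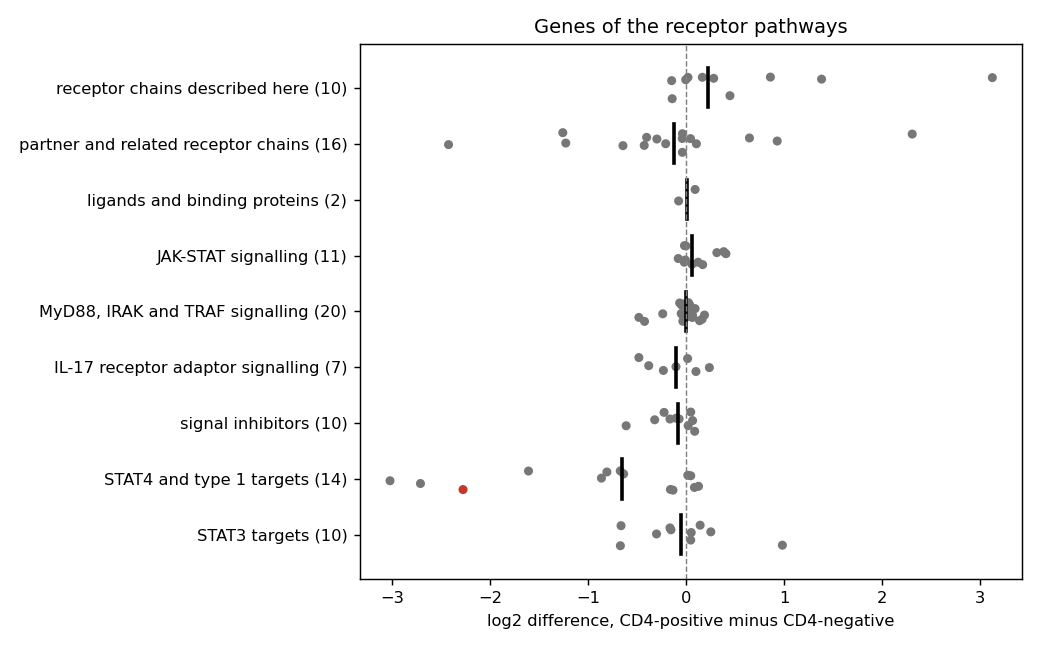
Log2 difference in level (CD4-positive minus CD4-negative, horizontal axis) of every tested gene of each list, with the number tested in brackets, the list median as a black bar and the median of all tested genes, -0.01, as a dashed line. Ccl5, at -2.28, is the only gene past an adjusted p of 0.05, drawn in red, and the JAK-STAT genes lie between -0.08 and 0.40.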

How the data were processed

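Polyadenylated RNA of 6 sorted NKT1 libraries was sequenced in paired ends (HiSeq4000, TruSeq stranded mRNA), per the labels' protocols. The tools RSEM, STAR and Picard and the build mm10 are named without version or role, per the submitters' processing notes. Which annotation was counted, and whether by strand, is not given here by any source used. As deposited by the authors, the data are 1 table of estimated counts per gene, not normalised, and its columns were matched to samples by library name. Between 6.23% and 8.68% of genes had a fractional value (further than 1e-06 from whole) in a library, and values were rounded before testing. Genes were found by symbol, and coordinates and exon lengths come from GENCODE M21 (GRCm38, the assembly of mm10), matched by Ensembl identifier without version.

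The receptor genes, the gene lists and the tests were chosen with earlier results of these data known. Counts were fitted in R 4.3.3 with edgeR 4.0.16: filterByExpr (12760 genes, minimum count 10), TMM scaling, robust quasi-likelihood F test on group, 2-sided, Benjamini-Hochberg adjustment at 0.05. SEs were derived from F, and 95% intervals from the fit's degrees of freedom. Likeness used log2 CPM with a prior count of 2. Chain ratios were tested by exact permutation (scipy 1.17.1). Alternatives were other scalings, DESeq2 1.42.0, limma-voom (limma 3.58.1), other filters, a replicate block, a batch term from how the libraries were named, and libraries left out. The tests were first run on simulated data.

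Libraries of a group differed by 55.6 to 400.0 in chi-square per degree of freedom, where sampling noise gives about 1, so all were kept. A count was worth 0.0185 to 0.0261 CPM. Intervals and floors on single counts cover counting error only. Named genes were all receptor genes, Cd4, and from each list the genes past the test, the 2 most abundant and the 2 of smallest p. Stat3, Stat4, Il1rap and Il10rb, and marker genes given singly, were named after their values were seen. Some genes that this rule names are not reported here.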

Additional observations from a re-analysis of the deposited data

How the results depend on the processing

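No receptor gene passed the test under any of the 17 alternatives. Where no gene at all passed, as in several fits below, this says nothing particular about the receptor genes. With DESeq2 on all genes with a count 162 genes passed (5 in the pathway lists), without the filter on low counts 67 (2), at an adjusted p under 0.1 68 (2), with the naming scheme as a batch term 11, and with the replicate 1 and 2 libraries only 9. Leaving out 1 library gave 0 to 44 genes and 0 to 2 in the lists: 0 by edgeR without any library other than CD4-negative replicate 3 (439 to 585 at an unadjusted p under 0.05) and 44 without that library. Without CD4-positive replicate 1 and CD4-negative replicate 3, added after seeing the data, there were 66 (2). In that edgeR fit 1194 of 12906 genes had an unadjusted p under 0.05. Among them were 4 of the 10 receptor genes, Il12rb1, Il1rl1, Il27ra and Il6st. Il17rb (unadjusted p of 0.0505) and Il6ra (0.124) were not, so the receptor genes under this rule changed with the libraries used. The replicate block gave 0 genes (0 in the lists, so Ccl5 did not pass, and 531 at an unadjusted p under 0.05). Same-numbered libraries did not all deviate together (correlations -0.08, 0.34 and 0.04). The value of the replicate 2 libraries, 0.34, was the highest of all pairs, while CD4-positive replicate 1 correlated best with CD4-negative replicate 3 (0.24). Names of same-numbered libraries match between the groups, but the labels state no pairs. The main fit therefore used none, and whether the libraries were paired cannot be told from these values. The replicate 3 libraries of both groups do share a naming scheme, and Tnfaip3, Nfkbia, Socs3 and Gadd45b, named after their values were seen, were highest in replicate 1 of both groups (for Socs3, CD4-positive replicate 1 had 81.0 CPM against 23.0 to 32.4 CPM in its group, and CD4-negative replicate 1 had 84.5 CPM against 23.0 to 24.7 CPM).

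Of 157 recomputed log2 differences of the receptor genes 143 kept their sign and their side of the threshold. They include fits in which no gene passed, where staying on that side carries no weight. The other 14 changed sign, all of genes near 0, and the cause was not tested. For Il12rb2 (-0.375 to 0.356 with 1 library left out) the values were -0.31 without CD4-positive replicate 2, -0.08 without CD4-positive replicate 3, -0.37 without CD4-negative replicate 3, -0.47 with replicates 1 and 2 only and -0.0349 without the libraries of low mitochondrial share. For Il18r1 (-0.427 to 0.088) they were 0.01 and 0.09, without CD4-positive replicate 3 and CD4-negative replicate 2. For Il18rap (-0.124 to 0.107) they were 0.0074 with upper-quartile scaling, 0.11 and 0.07 without CD4-positive replicate 1 and CD4-negative replicate 2, and 0.0499 without the low mitochondrial libraries. For Il10ra (-0.559 to 0.307) they were 0.0721 with the batch term, and 0.16 and 0.31 without CD4-positive replicate 1 and CD4-negative replicate 2. Leaving out 1 library put the difference in log2 chain ratio between -0.903 and 0.343 for Il12rb2 to Il12rb1 (above 0 in 3 of 6 fits: 0.343, 0.12 and 0.207) and between -0.0923 and 0.39 for Il18rap to Il18r1 (below 0 in 3 of 6: -0.0923, -0.0711 and -0.0836). Those of Il6ra (0.715 to 1.74) and Il27ra (0.145 to 0.395) to Il6st kept their sign. Il17rb, Il6ra and Il1rl1 had no value with a mean of at least 5 CPM. At 1 to 2 CPM or less, Il17rb and Il1rl1 are limited by their counts.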

Other observations

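The receptor for interferon gamma, the cytokine that IL-12 and IL-18 are known to elicit, had very unequal chains. Ifngr1, the binding chain, stood at 282, 405 and 397 CPM in CD4-positive replicates 1, 2 and 3, against 502, 500 and 333 CPM in CD4-negative replicates 1, 2 and 3. Ifngr2, the signalling chain, known to be low in differentiated type 1 T cells, stood at 0.658, 1.29 and 1.64 CPM in CD4-positive replicates 1, 2 and 3, against 0.602, 0.111 and 0 CPM in CD4-negative replicates 1, 2 and 3. Its groups did not overlap (log2 2.31, SE 1.12, unadjusted p of 0.0767 by edgeR), but CD4-positive replicate 1 and CD4-negative replicate 1 were close. Groups did not overlap for 9.41% of all tested genes (4.84% with the CD4-positive libraries higher). Ifngr2 had 6 and 0 counts in CD4-negative replicates 2 and 3. It met the filter on low counts only through its CD4-positive libraries and CD4-negative replicate 1, so its presence among the tested genes leans on the group in which it is high. It did not pass the test over all genes. Ifngr2 was singled out after its values were seen. Like Il17rb it had its highest CD4-negative value in replicate 1. Both genes had no count in CD4-negative replicate 3, the library with counts for the fewest genes.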
